A study of Homo sapiens with 15 samples.

Results

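Small structured noncoding RNAs were followed through RNA immunoprecipitation sequencing, in which RNA recovered with an antibody is sequenced beside the starting RNA. The set comprises every row whose name is RN7SK, RMRP or RPPH1, or begins with RN7SL, SNORA, SNORD, SCARNA, RNU or RNY and a digit. Membership is set by name and by no measured value, and the set was picked with earlier results of these data known. It held 28 genes over both tables and 21 that had a row in each. In 22Rv1 there were 22 of 22542 rows, and in LNCaP 27 of 22169 rows. No member had a row with the suffix .primary, which marks a separate row for many other genes (14296 and 14176 gene names in all).

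22Rv1 and LNCaP are established human prostate cancer cell lines, each grown without added treatment and fixed in 0.3% formaldehyde for 30 minutes at 4 degrees. Libraries were made with an antibody against Brg1, the ATPase subunit SMARCA4 of the SWI/SNF chromatin remodelling complex, with an antibody against Sfpq, an RNA-binding protein of splicing and paraspeckles, with non-specific IgG, and from input RNA without precipitation. 22Rv1 had 2 Brg1, 2 Sfpq, 3 IgG and 2 Input libraries, and LNCaP had 2 Brg1, 2 IgG and 2 Input libraries. Input was diluted towards the strongest precipitate, an equal volume of ERCC spike-in RNA was added, and ribosomal RNA was depleted before stranded library preparation, so a share of reads says nothing of the amount of RNA recovered. The labels do not say that replicates are separate cultures, so p-values measure only the spread between these libraries, which may be technical.

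Recovered totals ran from 490879 to 47871438 reads in 22Rv1 and from 22184 to 7506724 in LNCaP, where the IgG libraries held only 22184 and 46297 reads. The share of reads on .primary rows was 62.7% and 65.7% in Brg1 and 34.8% and 38.2% in Input of 22Rv1, and it ran from 27.5% to 33.4% in Sfpq and from 39.1% to 62.5% in IgG. In LNCaP it was 50.8% and 60.5% in Brg1, 35.2% and 42.3% in Input and 66.8% and 66.9% in IgG. Of prostate luminal markers, TMPRSS2, HOXB13 and STEAP2 had rows in both lines, and KLK3, KLK2 and FOLH1 had rows in LNCaP and none in 22Rv1. Neither leukocyte marker had a row in either line, COL1A1 was the only fibroblast marker with one, and VWF in LNCaP was the only endothelial marker with one.

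These RNAs act as scaffolds or guides inside protein particles, and most are not polyadenylated. 7SL is the RNA of the signal recognition particle, which takes ribosomes making secreted and membrane proteins to the endoplasmic reticulum. 7SK holds the transcription elongation factor P-TEFb inactive, RNase P and RNase MRP cut precursors of tRNA and ribosomal RNA, spliceosomal snRNAs recognise intron ends, and snoRNAs and scaRNAs guide modification or cleavage of ribosomal RNA and of snRNAs.

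Every snRNA, snoRNA and scaRNA member was longer than the median RefSeq gene of its class, at 132.5, 94 and 148 bases with pseudogenes left out. Of 604 genes other than pseudogenes that match the names in RefSeq (GRCh38.p14), 26 had a row in either table. Members ran from 135 bases (SNORA48) to 421 bases (SCARNA17), beside a median of 98 bases over the 604 genes, and 457 of those 604 were shorter than the shortest member. All 3 RefSeq 7SL genes, the 7SK gene and both RNase P/MRP genes had rows, whereas 8 of 29 scaRNA genes, 3 of 26 snRNA genes and 9 of 539 snoRNA genes did. None of the 4 Y RNA genes had a row. Of 2575 pseudogenes that match the names, only RN7SL4P and RN7SL128P had one. At 272 and 231 bases both were shorter than the median of 293 over 684 7SL pseudogenes. No length limit is given in the sources used here, and the part of fragment size in this was not tested.

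In the starting RNA the set took 7.15% ± 0.567 (SD, n = 2) of the 22Rv1 reads and 11.3% ± 2.46 (SD, n = 2) of the LNCaP reads. In 22Rv1 it held 0.594% ± 0.0619 (SD, n = 2) with Brg1, 0.293% ± 0.0320 (SD, n = 2) with Sfpq and 0.896% ± 0.387 (SD, n = 3) with IgG. The 3 precipitates of 22Rv1 therefore held 8.31%, 4.11% and 12.5% of the Input share. The gap to Input was uneven between classes. 7SL took 4.92% of Input reads and 0.210% with Brg1, which is 4.27% of the Input share, while scaRNA took 0.0400% and 0.0312%, which is 78.1% of it.

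**Figure D1:**
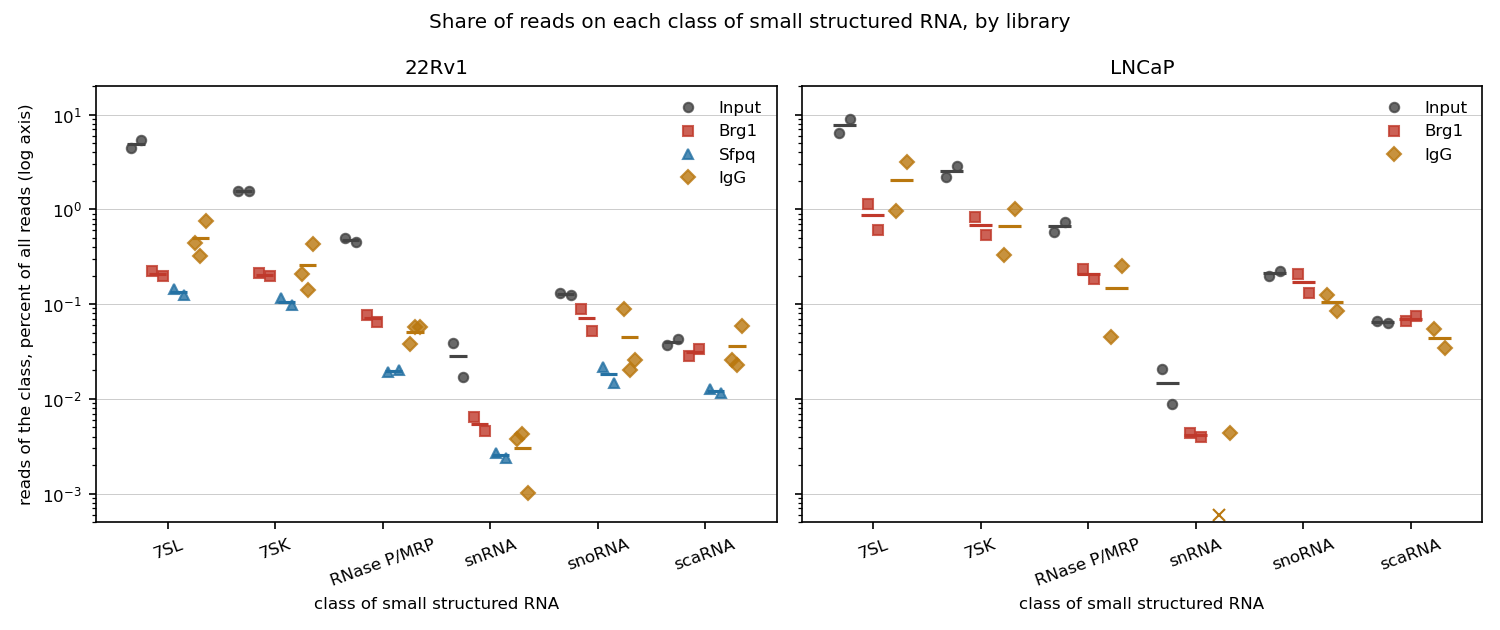
Percent of reads (log axis) on each of 6 classes of small structured RNA in every library of 22Rv1 and LNCaP; points are libraries, short bars are group means and a cross at the bottom is a library with 0 reads. The 7SL points lie far lower in every precipitate of 22Rv1 than in Input, while the scaRNA points of Brg1 and IgG lie near or among those of Input.

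Between these extremes Brg1 held 13.2% of the Input share of 7SK, 14.8% of RNase P/MRP, 19.3% of snRNA and 55.2% of snoRNA in 22Rv1. Sfpq held 2.74% of 7SL, 6.84% of 7SK, 4.10% of RNase P/MRP, 8.97% of snRNA, 14.3% of snoRNA and 30.5% of scaRNA. IgG held 10.2%, 16.6%, 10.6%, 10.7%, 34.8% and 89.6% of the same classes in that order, so 7SL was low and scaRNA high in the non-specific precipitate too. These comparisons share the 2 Input libraries, so their likeness is no separate observation. In LNCaP, Brg1 held 11.3% of the Input share of 7SL, 26.7% of 7SK, 31.7% of RNase P/MRP, 28.2% of snRNA, 80.7% of snoRNA and 109% of scaRNA. LNCaP IgG held 26.3% of 7SL and 68.7% of scaRNA, from libraries of so few reads that the 7SL share was 0.951% (95% Wilson interval 0.832 to 1.09) in replicate A and 3.13% (2.98 to 3.30) in replicate B. Intervals here cover counting error only. Input replicate A held more snRNA than replicate B, and without it Brg1 held 31.8% of the snRNA share of Input in 22Rv1, Sfpq 14.7% and IgG 17.6%, and Brg1 46.8% in LNCaP. Without IgG replicate A the IgG snoRNA share of 22Rv1 was 17.8% of Input. In LNCaP the IgG share of 7SL was 40.3% of Input without replicate A and 12.2% without replicate B.

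The denominator matters for the upper end of this range. With reads on .primary rows left out of the total, Brg1 held 7.62% of the 7SL share of Input and 99.0% of the snoRNA share in 22Rv1, and scaRNA stood at 138% in 22Rv1 and 152% in LNCaP. 1 gene carries much of some classes. Without RPPH1 the RNase P/MRP share with Brg1 was 45.3% of Input in 22Rv1, and without SCARNA2 the scaRNA share was 52.8%. Without SCARNA2 the IgG scaRNA share was 45.9% of Input.

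Each member was then tested as log2(RPM + 1), where RPM is reads scaled to a library total of 1000000, so a log2 change understates the change of low rows. Counts use limma with a Benjamini-Hochberg adjusted p under 0.05 over all rows. In Brg1 against Input of 22Rv1, 3 of 22 members fell (RN7SL1, RN7SL2 and RPPH1) and 0 rose, where 0.0399% of all rows fell and 0.0399% rose. In Sfpq against Input 4 of 22 fell (the same 3 and RMRP) and 0 rose, where 0.0311% of all rows fell and 0% rose. In IgG against Input 10 of 22 fell and 0 rose, where 8.74% of all rows fell and 0.382% rose. In LNCaP, Brg1 against Input, 13 of 27 fell and 0 rose, where 14% of all rows fell and 13% rose.

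The number of members that rose was 0 in each of these comparisons with edgeR and DESeq2 as well. At an unadjusted p under 0.05, 9, 12 and 14 of 22 members differed in the Brg1, Sfpq and IgG comparisons of 22Rv1 and 15 of 27 in LNCaP. Over all rows 2125, 1478 and 4455 of 22542 did so in 22Rv1, and 8553 of 22169 in LNCaP. The median log2 change of the members was -1.28 for Brg1, -2.74 for Sfpq and -2.83 for IgG in 22Rv1, beside -0.26, -0.19 and -0.96 over all rows. All members are plain rows, and the medians over plain rows alone were -0.77, 0.22 and -1.28. In LNCaP the member median was -0.63, beside -0.08 over all rows and -0.28 over plain rows. Every Brg1 library lay below every Input library for 20 of 22 members of 22Rv1 (50.9% of all rows) and 17 of 27 of LNCaP (35.7%). For Sfpq this held for 22 of 22 (47.3%), and for IgG for 16 of 22 (25.3%).

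The counts in 22Rv1 rest on few libraries. Brg1 against Input gave 0 calls without Brg1 replicate A, Input replicate A or Input replicate B, 1 without Brg1 replicate B, Sfpq replicate A or Sfpq replicate B, and 5 or 7 without IgG replicate A or C. Sfpq against Input gave 0 calls without Sfpq replicate A or B, Input replicate A or B, or IgG replicate B, and 8 without IgG replicate C. IgG against Input gave 5 calls without Input replicate A. Of all 22542 rows, Brg1 against Input called 375 higher and 303 lower without IgG replicate A, and 877 and 529 without C. Sfpq against Input called 63 higher and 66 lower without IgG replicate C. Without a trend in the prior spread, or with edgeR on library totals, both comparisons called 0 members. Fitted on the 2 groups compared alone they called 19 and 22. Those 2-group fits called most rows of any kind. With Brg1 6609 of 22537 rows rose and 9535 fell, and with Sfpq 5671 of 22529 rose and 8147 fell. For the LNCaP fit the prior took over each row's own spread entirely, so rows whose replicates differ widely have an error that is too small; the count was 7 without Input replicate B and 0 when the IgG libraries joined the fit.

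**Figure D2:**
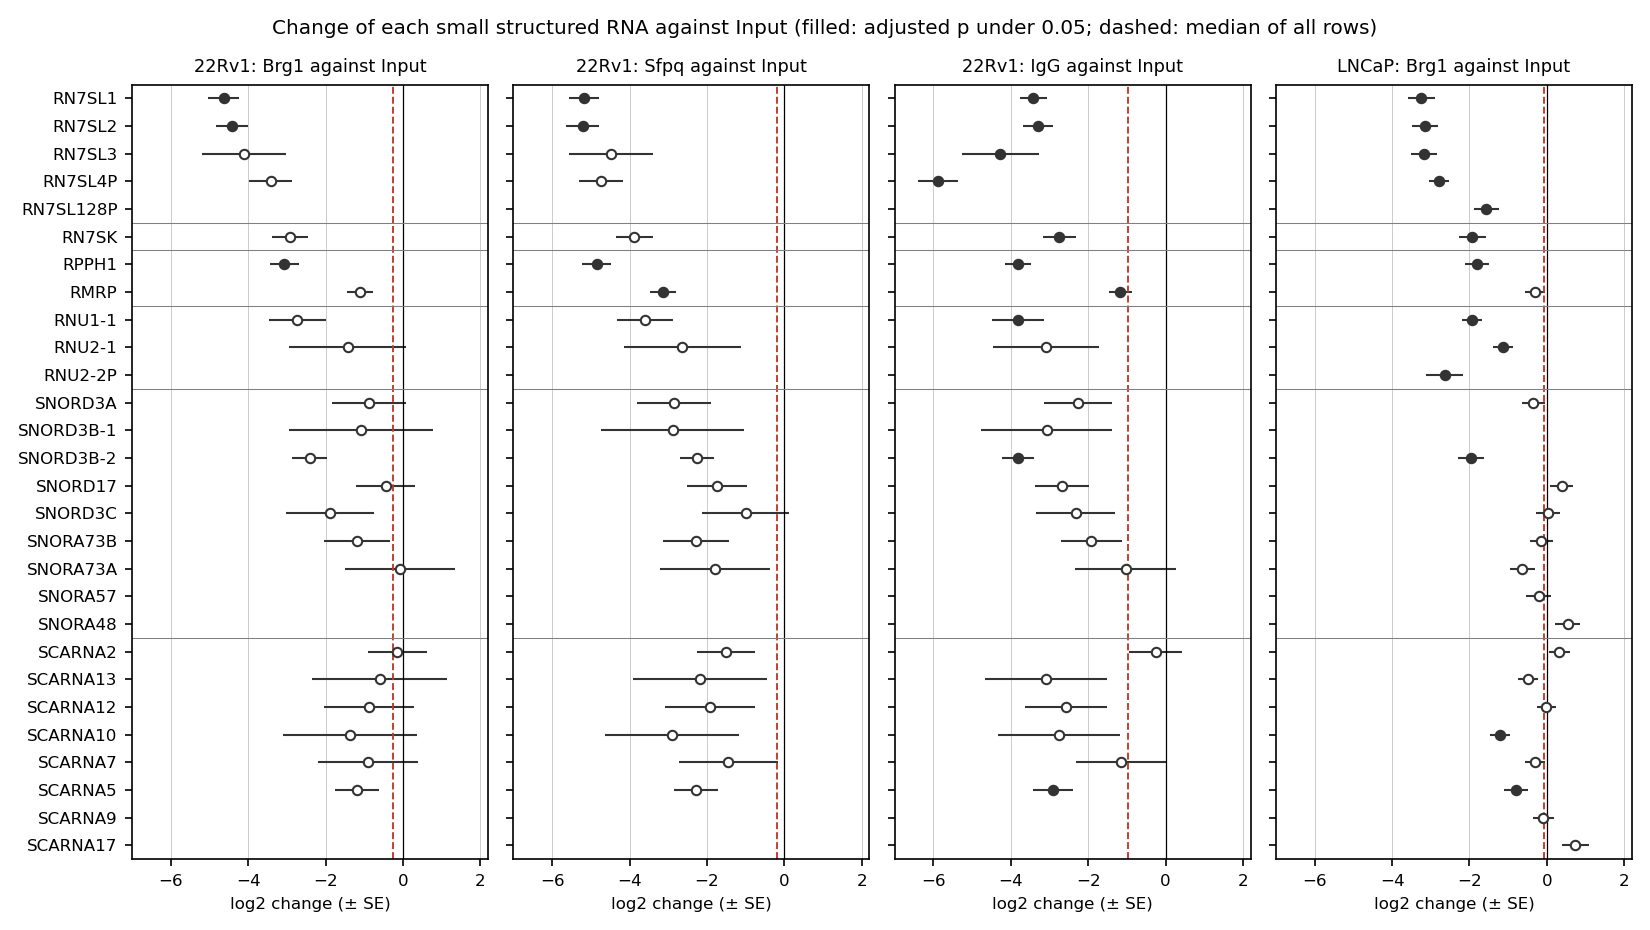
Log2 change of each member against Input (points, bars are ± 1 SE) for Brg1, Sfpq and IgG in 22Rv1 and Brg1 in LNCaP; filled points have a limma adjusted p under 0.05 and the dashed line is the median of all rows. The 7SL genes, RPPH1 and RN7SK lie farthest to the left in the 22Rv1 Brg1 panel, and SCARNA2, SNORA73A and SNORD17 lie nearest to 0.

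The 7SL genes had the lowest log2 changes with Brg1 among the members of 22Rv1. RN7SL1 (chr14:49586580-49586878) stood at 25673 and 32888 RPM in 22Rv1 Input, 1259 and 1082 with Brg1, 874 and 743 with Sfpq, and 2478, 1933 and 4203 with IgG. All 7 precipitates lay below both Input libraries, and all Brg1 and Sfpq values lay below all IgG values. The log2 change of RN7SL1 was -4.64 (SE 0.39, limma adjusted p = 0.0111) with Brg1, the lowest of all 22542 rows, -5.17 (SE 0.39, limma adjusted p = 0.0094) with Sfpq and -3.42 (SE 0.36, limma adjusted p = 0.00101) with IgG.

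RN7SL2 (chr14:49862551-49862849), another copy on the same chromosome, also lay low in every precipitate. It stood at 18805 and 20544 RPM in Input, 966 and 864 with Brg1, 558 and 502 with Sfpq, and 1925, 1250 and 3276 with IgG. The groups again did not overlap with Input. Its log2 change was -4.43 (SE 0.42, limma adjusted p = 0.0169) with Brg1 and -5.21 (SE 0.42, limma adjusted p = 0.0094) with Sfpq. The ratio of RN7SL1 to RN7SL2 was 1.48 in Input, 1.28 with Brg1, 1.52 with Sfpq and 1.37 with IgG. RN7SL1 and RN7SL2 are near-identical copies, so reads may be divided between them by the counting.

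RN7SL3 (chr14:49853616-49853914) carried far fewer reads. It stood at 160 and 147 RPM in Input, 10.1 and 6.16 with Brg1, 5.46 and 6.39 with Sfpq and 3.84, 2.85 and 26.5 with IgG. Its log2 change with Brg1 was -4.11 (SE 1.08) and did not pass the test (limma adjusted p = 0.20). RN7SL4P, a 7SL pseudogene, stood at 80.8 and 73.1 RPM in Input, 5.58 and 7.0 with Brg1 and 2.10 and 1.77 with Sfpq, and held 2, 1 and 0 reads in the IgG libraries. Against the mean IgG floor of 3 reads a library (2.83 RPM), its Input level was at least 27.2-fold higher.

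In LNCaP the 7SL genes also lay low with Brg1. RN7SL1 stood at 36327 and 51219 RPM in Input, 6221 and 3335 with Brg1 and 5184 and 17949 with IgG. Both Brg1 values lay below both Input values, and the lower IgG value fell between the Brg1 values. The log2 change with Brg1 was -3.24 (SE 0.35, limma adjusted p = 7.95e-18) for RN7SL1, -3.14 (SE 0.34, limma adjusted p = 1.93e-17) for RN7SL2, -3.17 for RN7SL3 and -2.79 for RN7SL4P. RN7SL128P, a pseudogene inside E2F3 that had a row only in LNCaP, stood at 10.5 and 17.5 RPM in Input and 5.03 and 3.03 with Brg1 (log2 change -1.56, SE 0.32, limma adjusted p = 2.42e-05).

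7SK kept a larger part of its Input level than 7SL. RN7SK (chr6:52995620-52995951) stood at 15624 and 15418 RPM in 22Rv1 Input, 2126 and 1978 with Brg1, 1157 and 967 with Sfpq, and 2072, 1402 and 4274 with IgG. All precipitates lay below Input, both Sfpq values lay below every other library, and the Brg1 values lay within the range of IgG. Its log2 change was -2.92 (SE 0.48) with Brg1 and -3.87 (SE 0.48) with Sfpq, neither of which passed the test (limma adjusted p = 0.0975 and 0.0585). The change with IgG was -2.74 (SE 0.43, limma adjusted p = 0.00447).

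Brg1 and IgG gave RN7SK levels that differed by -0.18 (SE 0.43, limma adjusted p = 0.843) in log2. In LNCaP RN7SK stood at 21905 and 28818 RPM in Input, 8217 and 5325 with Brg1 and 3291 and 10044 with IgG. Brg1 lay below Input (log2 change -1.93, SE 0.35, limma adjusted p = 1.63e-06) and inside the IgG range.

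The RNAs of RNase P and RNase MRP, which share most of their protein subunits, lay at different distances below Input. RPPH1 (chr14:20343071-20343411), the RNA of RNase P, stood at 4500 and 4235 RPM in 22Rv1 Input, 552 and 488 with Brg1, 141 and 160 with Sfpq and 189, 404 and 389 with IgG. Both Brg1 values lay above every Sfpq and IgG value and below Input. For RPPH1 the log2 change was -3.07 (SE 0.38, limma adjusted p = 0.0492) with Brg1, -4.85 (SE 0.38, limma adjusted p = 0.0094) with Sfpq and -3.81 (SE 0.35, limma adjusted p = 0.000957) with IgG.

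RMRP (chr9:35657750-35658019), the RNA of RNase MRP, stood at 514 and 324 RPM in Input, 215 and 164 with Brg1, 50.6 and 41.1 with Sfpq, and 187, 172 and 185 with IgG. Sfpq lay lowest, and the IgG values lay between the 2 Brg1 values. Its log2 change was -1.11 (SE 0.33, limma adjusted p = 0.252) with Brg1, -3.13 (SE 0.33, limma adjusted p = 0.0333) with Sfpq and -1.17 (SE 0.30, limma adjusted p = 0.0469) with IgG.

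In LNCaP, RPPH1 stood at 5448 and 6982 RPM in Input, 1993 and 1546 with Brg1 and 270 and 2376 with IgG (Brg1 against Input, log2 change -1.81, SE 0.31, limma adjusted p = 2.8e-07). RMRP stood at 379 and 437 in Input and 378 and 286 with Brg1, a log2 change of -0.31 (SE 0.26, limma adjusted p = 0.40). For RMRP the higher Brg1 library was just below the lower Input library.

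The spliceosomal snRNAs took few reads. RNU1-1, a U1 gene whose RNA pairs with the start of introns, stood at 297 and 122 RPM in 22Rv1 Input, 38.9 and 19.8 with Brg1, 16.7 and 13.2 with Sfpq and 22.6, 8.56 and 10.2 with IgG. All precipitates lay below Input, and both the Input and the IgG libraries differed widely among themselves. The log2 change was -2.73 (SE 0.73, limma adjusted p = 0.207) with Brg1 and -3.81 (SE 0.66, limma adjusted p = 0.00736) with IgG.

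RNU2-1, a U2 gene whose RNA pairs with the branch point, stood at 96.6 and 50.2 RPM in Input, 24.8 and 25.6 with Brg1, 10.1 and 10.7 with Sfpq, and 15.6, 33.7 and 0 with IgG. The last is 0 of 490879 reads, which allows up to 6.11 RPM. Its log2 change with Brg1 was -1.43 (SE 1.51, limma adjusted p = 0.944). U1 and U2 have many near-identical copies, so the level of either row is uncertain.

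In LNCaP RNU1-1 stood at 139 and 31.2 RPM in Input and 19.8 and 13.9 with Brg1. Its call (log2 change -1.93, SE 0.26) rests on the trend of the spread and on Input replicate A. The change was -0.87 (limma adjusted p = 0.151) without Input replicate A and -2.99 without Input replicate B, and the call was lost with DESeq2 and with a robust prior. RNU2-1 stood at 58.4 and 50.2 in Input and 23.1 and 25.4 with Brg1 (log2 change -1.13, SE 0.25, limma adjusted p = 0.00019). RNU2-2P, a U2 gene named as a pseudogene in the files and listed by RefSeq as RNU2-2, stood at 9.21 and 7.46 in Input (65 and 56 reads) and 0.942 and 0.144 with Brg1 (6 and 1 reads). Its log2 change was -2.64 (SE 0.48, limma adjusted p = 2.25e-06), while WDR74, the gene it overlaps, had 0.42 on its plain row and -0.22 on its .primary row.

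Among snoRNAs, U3 dominated. SNORD3A (chr17:19188016-19188232), a U3 gene whose RNA is needed for the early cleavages of ribosomal RNA precursors, stood at 1140 and 1122 RPM in 22Rv1 Input, 819 and 461 with Brg1, 193 and 125 with Sfpq, and 839, 65.1 and 236 with IgG. Both Brg1 values lay between Input and Sfpq, and the IgG values spanned all of the Brg1 and Sfpq values. The log2 change was -0.88 (SE 0.96, limma adjusted p = 0.948) with Brg1, -2.86 (SE 0.96, limma adjusted p = 0.555) with Sfpq and -2.26 (SE 0.88, limma adjusted p = 0.202) with IgG.

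The other U3 copies had fewer reads. SNORD3B-1 stood at 134 and 69.2 RPM in 22Rv1 Input and 52.9 and 38.0 with Brg1. SNORD3B-2 stood at 12.4 and 13.7 in Input and 0.484 and 3.69 with Brg1, and SNORD3C at 8.98 and 10.0 in Input and 0.295 and 5.19 with Brg1. For SNORD3B-2 and SNORD3C the 2 Brg1 libraries differed widely from each other. These 4 genes are near-identical copies, so the division of reads between them is uncertain.

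In LNCaP SNORD3A stood at 1907 and 2185 RPM in Input and 2039 and 1262 with Brg1, so the groups overlapped (log2 change -0.35, SE 0.29, limma adjusted p = 0.390). SNORD3B-2 stood at 12.3 and 14.1 in Input and 3.93 and 1.73 with Brg1 (log2 change -1.95, SE 0.34, limma adjusted p = 5.13e-07). SNORD3C, at 6.80 and 7.86 in Input and 6.91 and 8.08 with Brg1, overlapped.

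The remaining snoRNAs stayed under 11 RPM in Input of either line. SNORA73A and SNORA73B, H/ACA snoRNAs of ribosomal RNA processing within the RCC1 and SNHG3 genes, had log2 changes of -0.07 (SE 1.42) and -1.19 (SE 0.86) with Brg1 in 22Rv1. SNORA73A stood at 7.33 and 6.05 RPM in Input and 6.04 and 6.56 with Brg1, overlapping, and at 1.68 and 0.816 with Sfpq. Its IgG libraries held 144, 1 and 0 reads, so IgG replicate A alone carried its IgG level.

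SNORD17, a C/D box snoRNA within SNX5, stood at 9.30 and 10.7 RPM in 22Rv1 Input and 8.48 and 5.83 with Brg1, and at 6.10 and 7.99 in LNCaP Input and 10.5 and 8.37 with Brg1. Brg1 thus lay below Input in 22Rv1 (above it, at 0.31, on shares of plain-row reads) and above it in LNCaP (below it, at -0.94, on the deposited scaling), with neither change passing the test (log2 change -0.45, SE 0.77, and 0.38, SE 0.31, limma adjusted p = 0.948 and 0.367). SNORA48 stood at 5.67 and 6.26 in LNCaP Input and 9.74 and 8.52 with Brg1 (log2 change 0.54, SE 0.32, limma adjusted p = 0.197). SNORA57, at 7.94 and 7.33 in LNCaP Input and 7.54 and 5.49 with Brg1, overlapped.

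With Brg1 in 22Rv1 the scaRNAs together held 78.1% of their Input share of all reads, and 52.8% without SCARNA2, beside 55.2% for the snoRNAs. Member by member, the median log2 change with Brg1 was -0.89 for 6 scaRNAs and -1.09 for 7 snoRNAs in 22Rv1, and -0.20 and -0.18 for 8 of each in LNCaP. With IgG in 22Rv1 it was -2.66 and -2.33. SCARNA2 (chr1:109100193-109100612), the most abundant of these Cajal body guide RNAs, stood at 239 and 295 RPM in 22Rv1 Input, 212 and 273 with Brg1, 89.8 and 95.8 with Sfpq, and 248, 78.2 and 566 with IgG. Brg1 and IgG overlapped Input, and Sfpq lay below it. The log2 change was -0.14 (SE 0.75, limma adjusted p = 0.973) with Brg1, -1.51 (SE 0.75, limma adjusted p = 0.866) with Sfpq and -0.25 (SE 0.69, limma adjusted p = 0.850) with IgG.

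In LNCaP SCARNA2 stood at 446 and 415 RPM in Input and 493 and 586 with Brg1. Both Brg1 values were higher, and the log2 change of 0.32 (SE 0.27) did not pass the test (limma adjusted p = 0.388). SCARNA17, at 3.69 and 4.40 in Input and 7.22 and 7.51 with Brg1, had the highest log2 change of any member against Input in either line, 0.73 (SE 0.35, limma adjusted p = 0.107). In all, 4 of 27 members had both Brg1 libraries above both Input libraries in LNCaP (28.5% of all rows): SCARNA2, SCARNA17, SNORA48 and SNORD17. SNORA48 overlaps EIF4A1, whose plain and .primary rows changed by 0.53 and -0.67 in log2 there. It also overlaps SENP3-EIF4A1, with -1.71 on its .primary row. SCARNA17 overlaps SNHG22, at 0.41 and 0.94 on the plain and .primary rows, and SNORD17 overlaps SNX5, at -0.55 and -0.26. Whether these members moved apart from those genes was not tested. On the deposited scaling, which moved the median of all LNCaP rows from -0.08 to -1.46, the changes of SCARNA2, SNORA48 and SNORD17 were -1.05, -0.76 and -0.94.

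Other scaRNAs lay lower in Brg1 than in Input. SCARNA10 stood at 24.2 and 23.3 RPM in 22Rv1 Input and 7.99 and 9.17 with Brg1, and at 38.7 and 37.8 in LNCaP Input and 16.3 and 15.7 with Brg1. Its log2 change was -1.37 (SE 1.73, limma adjusted p = 0.948) in 22Rv1 and -1.21 (SE 0.26, limma adjusted p = 7.21e-05) in LNCaP. SCARNA12 stood at 34.0 and 33.5 in 22Rv1 Input and 18.8 and 17.2 with Brg1, but at 42.7 and 47.8 in LNCaP Input and 45.4 and 44.3 with Brg1. It was thus lower with Brg1 in 22Rv1 and overlapped in LNCaP, and the difference between the lines was not tested.

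SCARNA13 had a log2 change with Brg1 of -0.61 (SE 1.74) in 22Rv1 and -0.48 (SE 0.25) in LNCaP, and SCARNA7 of -0.90 (SE 1.29) and -0.30 (SE 0.26). The 22Rv1 fit shares 1 spread over 4 groups, and its IgG libraries disagreed for both these and SCARNA10. SCARNA10 held 86 reads in IgG replicate B and 0 in replicates A and C, and SCARNA13 held 6, 101 and 0 reads in replicates A, B and C. SCARNA5 stood at 12.3 and 9.60 RPM in 22Rv1 Input and 6.65 and 2.61 with Brg1 (log2 change -1.18, SE 0.57, limma adjusted p = 0.605). In LNCaP SCARNA5 stood at 10.1 and 11.9 in Input and 5.97 and 5.77 with Brg1 (log2 change -0.80, SE 0.31, limma adjusted p = 0.0391), 1 of 2 scaRNAs called there with SCARNA10. SCARNA9, with a row in LNCaP only, overlapped Input.

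**Figure D3:**
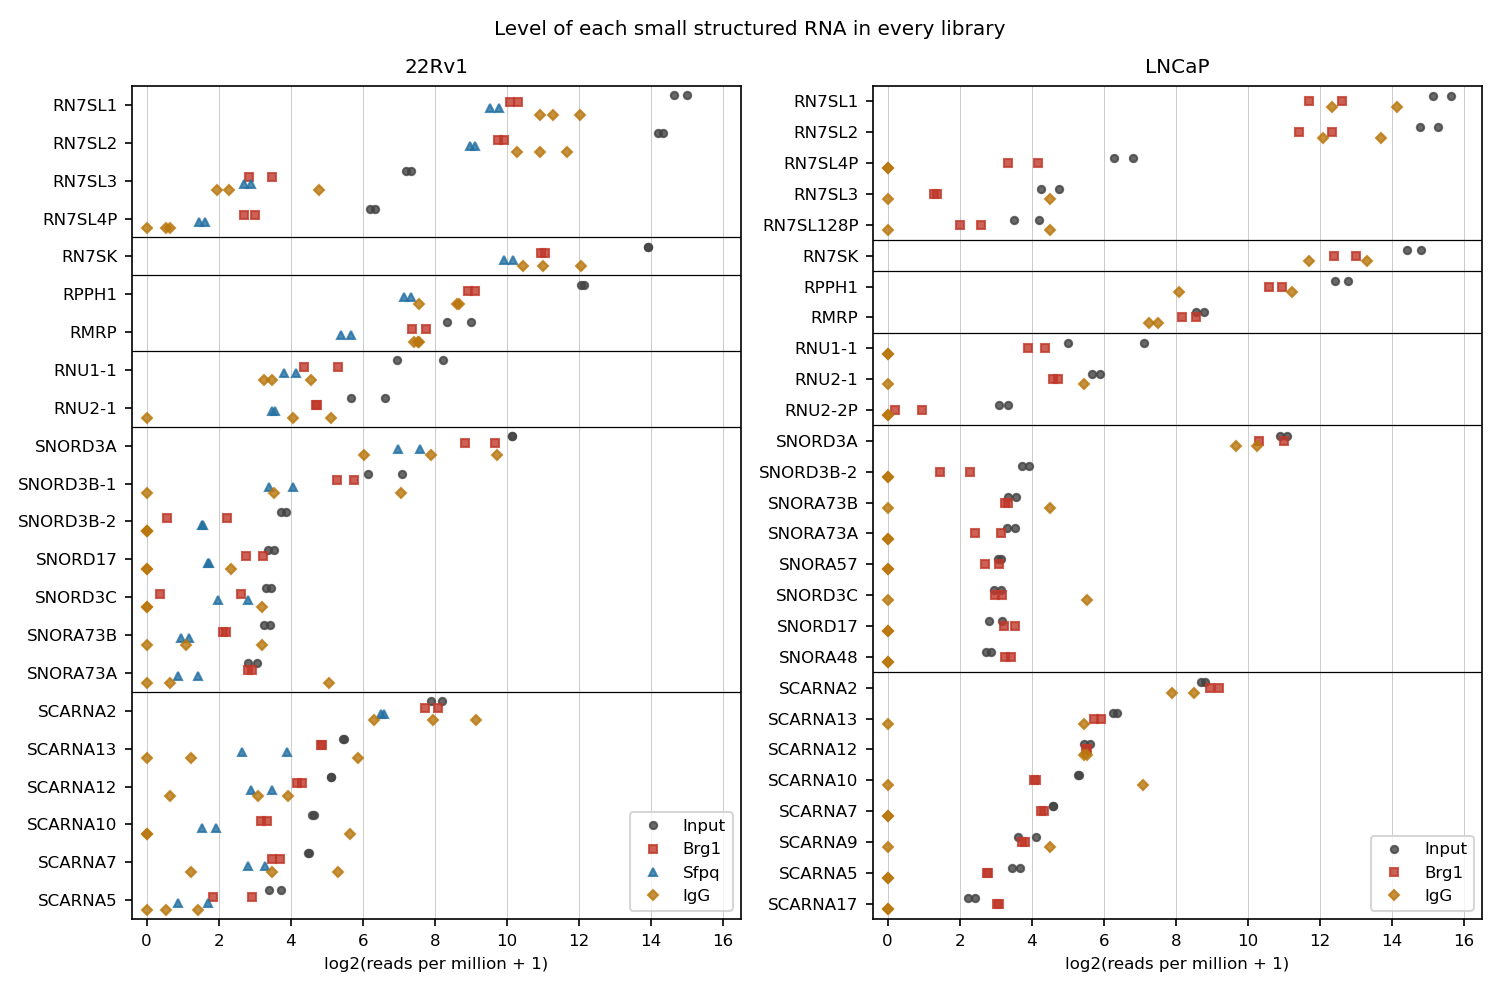
Level of each member in every library as log2(RPM + 1), 22Rv1 and LNCaP, with 0 where a library has no read. RN7SL1, RN7SL2 and RN7SK top the Input libraries of both lines, and many low members have no read in an IgG library.

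The direction against Input depended on the denominator or the model for some members. All 22 log2 changes were negative for Brg1, Sfpq and IgG in 22Rv1 on shares of all reads, but with Brg1 SCARNA2 and SNORA73A turned positive with TMM factors (0.06 and 0.11), and these, SCARNA13 and SNORD17 did so on shares of plain-row reads (0.68, 0.69, 0.20 and 0.31). TMM factors moved the median of all rows from -0.26 to -0.06, and shares of plain-row reads moved it to 0.54. With IgG, SCARNA2 turned positive with TMM factors (0.10) and on shares of plain-row reads (0.23), SCARNA2 and SNORA73A did so with edgeR on library totals (0.14 and 0.82), and SCARNA2, SCARNA7, SCARNA10 and SNORA73A did so with DESeq2 (0.34, 0.26, 0.22 and 1.13). No named member turned positive with Sfpq in the alternatives run. In LNCaP, RMRP, SNORD3A, SCARNA7, SCARNA12, SNORA73B and SNORA57 turned positive on shares of plain-row reads (0.16, 0.13, 0.16, 0.46, 0.30 and 0.21).

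Against IgG the picture differed from that against Input. In Brg1 against IgG of 22Rv1, 1 of 22 members rose and 0 fell, where 8.65% of all rows rose and 0.954% fell. The median log2 change of the members was 1.02, beside 0.86 over all rows and 0.50 over plain rows. The member that rose was RN7SL4P, named after its values were seen, with a log2 change of 2.46 (SE 0.52, limma adjusted p = 0.0181); its Brg1 level was at least 2.22-fold above the IgG floor. RN7SL1 and RN7SL2 lay lower in every Brg1 library than in any IgG library, with log2 changes of -1.22 (SE 0.36, limma adjusted p = 0.0781) and -1.12 (SE 0.38, limma adjusted p = 0.134). RPPH1 lay higher in every Brg1 library (log2 change 0.74, SE 0.35, limma adjusted p = 0.279). At an unadjusted p under 0.05 there were 6 of 22 members, beside 4580 of all 22542 rows. The RN7SL4P call was lost without Brg1 replicate B, Sfpq replicate A or Sfpq replicate B, each of which leaves 1 library in a group. Members called numbered 3, 4 and 5 without IgG replicates A, B and C. Of all 22542 rows 5004 rose and 1481 fell without IgG replicate A, 3384 and 1218 without B, and 5347 and 893 without C. edgeR with TMM factors called 1 member, lower, where 1278 of 22542 rows rose and 202 fell. DESeq2 called 1 higher and 2 lower, where 2009 of 22162 rows rose and 1212 fell.

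In Sfpq against IgG, 3 of 22 members fell and 1 rose, where 1.72% of all rows fell and 9.13% rose. The member median was -0.18 in log2, beside 0.83 over all rows and 1.41 over plain rows. RN7SL1, RN7SL2 and RMRP fell, with log2 changes of -1.75 (SE 0.36, limma adjusted p = 0.0167), -1.91 (SE 0.38, limma adjusted p = 0.0157) and -1.97 (SE 0.30, limma adjusted p = 0.00424). The member that rose was SNORD3B-2, which held 14 reads in each Sfpq library and 0 in all 3 IgG libraries. Its log2 change was 1.55 (SE 0.41, limma adjusted p = 0.0474). Its Sfpq level of 1.93 RPM lies under the mean IgG floor of 2.83, so no fold over that floor can be given. The single floors were 0.678 and 1.71 RPM in IgG replicates A and B, under the Sfpq level, and 6.11 in replicate C, above it. The call rests on few reads. The count was 1 without Sfpq replicate A and 0 without Sfpq replicate B.

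For 4 of 22 members of 22Rv1 (RN7SL4P, SCARNA5, SNORD17 and SNORD3B-2) no IgG library held over 3 reads. In LNCaP this was so for 20 of 27 members and the mean floor there lay above the Input level of each of these 20. Against that mean floor the LNCaP IgG libraries could not show a difference for them. The single floors were 135 RPM in replicate A and 64.8 RPM in replicate B. The mean Input levels of RN7SL4P, RNU1-1 and SCARNA13, at 93.5, 84.9 and 78.7 RPM, lay above the floor of replicate B. RN7SL4P and RNU1-1 held 0 reads in both IgG libraries and SCARNA13 held 0 and 2, and these differences were not tested.

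Brg1 and Sfpq precipitates differed for 1 of 22 members. RMRP was higher with Brg1 by 2.02 in log2 (SE 0.33, limma adjusted p = 0.0295), where 1.52% of all rows were higher and 1.27% lower. SNORD3A, at 1.98 (SE 0.96, limma adjusted p = 0.338), and RPPH1, at 1.78 (SE 0.38, limma adjusted p = 0.0501), did not pass the test. Every Brg1 library lay above every Sfpq library for 19 of 22 members (44.7% of all rows). The median log2 difference over all plain rows was -0.93, and all members are plain rows. The RMRP call was lost with edgeR on library totals and with edgeR and TMM factors (0 members called by each, with 2 and 5 at an unadjusted p under 0.05). Of all 22542 rows 3642 and 3491 lay under that p. Without any 1 of the Brg1, Sfpq or Input libraries, which leaves 1 library in a group, the RMRP call was lost too. Members called numbered 3 without IgG replicate A or B and 6 without IgG replicate C. Over all 22542 rows 1788 were higher with Brg1 and 1675 lower without IgG replicate A. The numbers were 2619 and 2333 without B, and 2493 and 1880 without C.

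Ratios of 2 members within a library do not depend on the total. RN7SK over RN7SL1 was 0.609 and 0.469 in 22Rv1 Input, 1.69 and 1.83 with Brg1, 1.32 and 1.30 with Sfpq, and 0.836, 0.725 and 1.02 with IgG. All precipitates lay above Input, and Brg1 and Sfpq above IgG. In LNCaP it was 0.603 and 0.563 in Input, 1.32 and 1.60 with Brg1 and 0.635 and 0.560 with IgG, so that only Brg1 stood apart from Input.

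RMRP over RPPH1 was 0.114 and 0.0764 in 22Rv1 Input, 0.390 and 0.336 with Brg1, 0.358 and 0.257 with Sfpq, and 0.986, 0.425 and 0.476 with IgG. IgG lay highest and Input lowest, and Brg1 and Sfpq overlapped. In LNCaP it was 0.0696 and 0.0626 in Input and 0.190 and 0.185 with Brg1. The IgG values there, 0.667 and 0.0636, rest on 4 and 7 RMRP reads.

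SNORD3A over RN7SK was 0.0730 and 0.0728 in 22Rv1 Input, 0.385 and 0.233 with Brg1, and 0.167 and 0.130 with Sfpq. IgG gave 0.405, 0.0464 and 0.0553, spanning all of these. SCARNA2 over RN7SK was 0.0153 and 0.0191 in Input, 0.0997 and 0.138 with Brg1, 0.0776 and 0.0990 with Sfpq, and 0.119, 0.0558 and 0.133 with IgG. Every precipitate lay above Input for this ratio, and the precipitates overlapped each other. With 2 libraries a group an exact permutation test of a ratio cannot reach 0.05, so none was run.

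**Figure D4:**
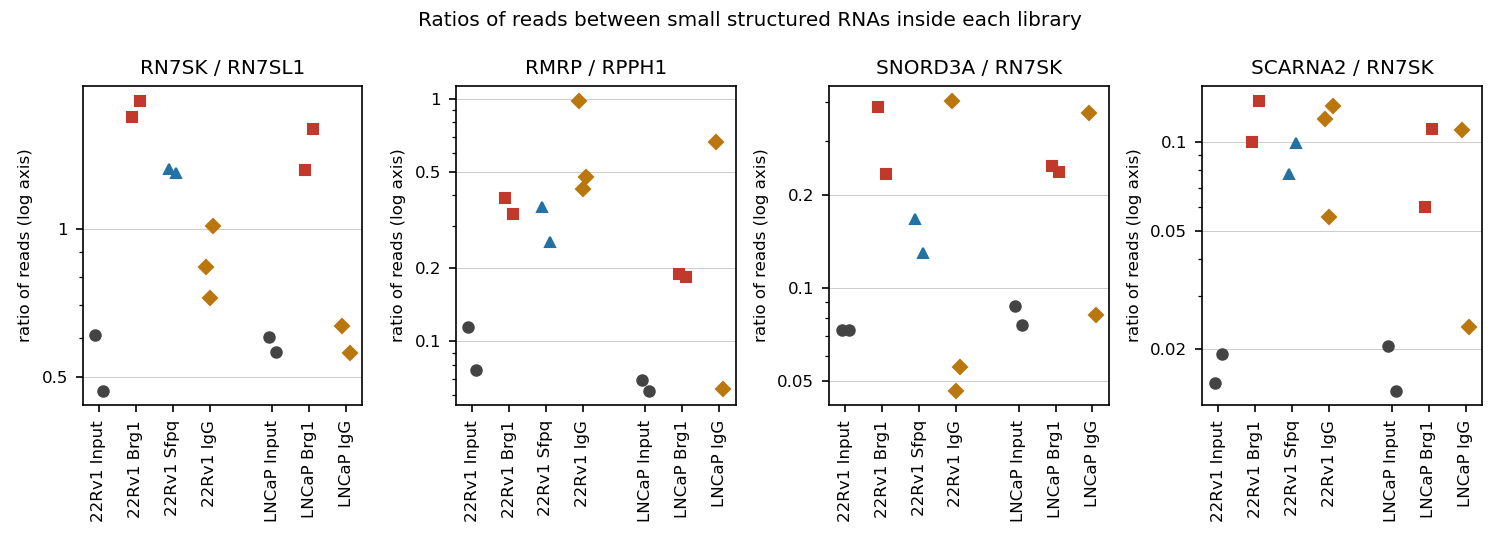
Ratio of reads (log axis) for RN7SK over RN7SL1, RMRP over RPPH1, SNORD3A over RN7SK and SCARNA2 over RN7SK in each library of both lines. In 22Rv1 the precipitates lie above Input in each panel except SNORD3A over RN7SK, where 2 IgG libraries lie below Input.

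Per length, the order of the members by group mean changed between Input and each precipitate of 22Rv1, IgG included. In RPM per kilobase of RefSeq length, 22Rv1 Input had RN7SL1 at 97928, RN7SL2 at 65802, RN7SK at 46750, RPPH1 at 12808, SNORD3A at 5212, RMRP at 1552 and SCARNA2 at 636. With Brg1, RN7SK led at 6180, followed by RN7SL1 at 3916, RN7SL2 at 3062, SNORD3A at 2949, RPPH1 at 1525, RMRP at 702 and SCARNA2 at 577. With Sfpq, RN7SK was at 3199, RN7SL1 at 2704, RN7SL2 at 1773, SNORD3A at 733, RPPH1 at 441, SCARNA2 at 221 and RMRP at 170. With IgG, RN7SL1 was at 9604, RN7SK at 7779, RN7SL2 at 7191, SNORD3A at 1751, RPPH1 at 961, SCARNA2 at 708 and RMRP at 672. Brg1 values of RN7SK exceeded those of RN7SL1 in both libraries, whereas RN7SL2 overlapped SNORD3A there and RMRP overlapped SCARNA2.

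Many members lie within other genes. In 22Rv1, 11 of 22 members overlapped another RefSeq gene, with a median Brg1 change of -1.18 in log2, beside -1.89 for the 11 that did not. In LNCaP, 17 of 27 overlapped one, with medians of -0.48 and -1.47. RN7SL1 overlaps RPS29, a ribosomal protein gene, whose plain row changed by -2.11 in log2 (limma adjusted p = 0.353) with Brg1 in 22Rv1 and fell by 1.13 in log2 (limma adjusted p = 0.000189) in LNCaP. With Brg1 in 22Rv1, SCARNA10 at -1.37 (SE 1.73, limma adjusted p = 0.948) lay lower than NCAPD2, the condensin subunit gene around it. NCAPD2 had -0.55 on the plain and -0.46 on the .primary row. RN7SL1, RN7SL4P and SCARNA5 also lay lower than the plain row of the gene they overlap, whereas SCARNA12, SCARNA7, SNORA73A and SNORD17 lay higher. SNORA73B lay between RCC1 and SNHG3. On .primary rows SCARNA12, SCARNA7 and SNORD17 lay lower than that gene. None of these differences was tested. The use of strand in counting is not given in the sources used here, so the reads of such a member and of the gene around it may not be told apart.

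The messenger RNAs of the proteins that bind these RNAs were read from 7 gene lists. With Brg1 and with Sfpq in 22Rv1, limma called 0 of their 135 plain and .primary rows in either direction, with 5 and 6 rows at an unadjusted p under 0.05. Of all 22542 rows 2125 and 1478 lay under that p. edgeR called 0 in both, and DESeq2 called 0 with Brg1 and 1, lower, with Sfpq. The plain rows of the 8 signal recognition particle genes had a median log2 change of -0.98 with Brg1 and 0.11 with Sfpq, those of the 7 genes of the 7SK particle and P-TEFb -0.64 and 0.75, and 9 of 10 RNase P and MRP protein genes -0.89 and -0.17. The 25 snRNP genes had -0.74 and -0.69 and 11 of 12 snoRNP and scaRNP genes -0.59 and -0.08. The 2 of 3 Y RNA protein genes had -0.86 and 0.55, and 15 of 17 genes of snRNA and RNA polymerase III transcription -0.50 and 0.69. All plain rows had medians of -0.77 and 0.22, and plain and .primary rows together -0.26 and -0.19. The .primary rows as a whole thus lay higher than plain rows with Brg1 and lower with Sfpq, and their own median was not taken. The .primary rows of the lists lay lower with Sfpq, with medians of -1.05 for the signal recognition particle, -0.90 for the 7SK particle and P-TEFb, -1.68 for RNase P and MRP, -1.15 for snRNP, -0.87 for snoRNP and scaRNP, -1.12 for Y RNA proteins and -1.10 for snRNA and RNA polymerase III transcription.

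In LNCaP 4 of 134 such rows rose and 16 fell with limma, where 13% rose and 14% fell over all rows. On the same rows edgeR with TMM factors gave 6 and 11, and DESeq2 6 and 6. By limma, SRP54, the GTPase of the signal recognition particle, rose by 0.69 on its plain row, and SRPRB, a subunit of its receptor, fell by 0.69. SRP9 fell by 0.97 on its .primary row. RPP14 fell by 0.74 on its plain row and RPP38 by 1.32 on its .primary row, while 0 of 7 plain and 0 of 6 .primary rows of the 7SK particle and P-TEFb were called.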

How the data were processed

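Each line's table holds a signal, normalized counts, deposited by the authors per the file headers. The submitters' processing notes name STAR 2.6, Salmon 0.8.2, deepTools 2.5.2, DESeq2 and hg38. In every library 100% of values were whole multiples of 1 factor within 0.001 read, so reads were recovered by dividing by the smallest positive value. RPM scaled all recovered reads of a library to 1000000. Rows with a mean of at least 1 RPM were fitted in R 4.3.3 with limma 3.58.1 on log2(RPM + 1), with the 4 groups of 22Rv1 together and only Brg1 and Input in LNCaP. Calls had a Benjamini-Hochberg adjusted p under 0.05. Alternatives used edgeR 4.0.16 and DESeq2 1.42.0 on recovered reads, other denominators, pseudocounts and left-out libraries. The fits were tested on simulated data. Wilson intervals are 95%, and the floor is 3 reads.

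The members and gene lists were chosen with earlier results of these data known. Named for testing under alternatives were RN7SK, RMRP, RPPH1, RN7SL1 to RN7SL3, all RNU and RNY rows, and per line the 5 SNORA, 5 SNORD and 4 SCARNA rows of highest mean level. Other members are named as part of the full set. The labels do not say whether libraries with the same replicate letter share a culture or batch. Sequences of the members are not printed, and near-identical copies are uncertain.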

Additional observations from a re-analysis of the deposited data

Results flagged for a closer look

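SNORD17, the C/D box snoRNA within SNX5, moved in opposite directions with Brg1 in the 2 lines. Its log2 change against Input was -0.45 in 22Rv1, where both Brg1 libraries lay below both Input libraries, and 0.38 in LNCaP, where both lay above. Neither passed the test, and the difference between the lines was not tested. No group of 22Rv1 or LNCaP had 4 libraries, so none was searched for a library standing apart.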

How the results depend on the processing

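Counts of small structured RNA members called depended on the processing, and the cause of each move was not tested. With 1 library left out, members called numbered 0 to 5 for Brg1 against IgG in 22Rv1, 0 to 7 for Brg1 against Input in 22Rv1, 7 to 13 for Brg1 against Input in LNCaP, 0 to 6 for Brg1 against Sfpq in 22Rv1, 5 to 14 for IgG against Input in 22Rv1, 0 to 6 for Sfpq against IgG in 22Rv1 and 0 to 8 for Sfpq against Input in 22Rv1. Without IgG replicate C, 877 of 22542 rows rose and 529 fell for Brg1 against Input, beside 9 and 9 with all libraries. For Sfpq against Input 63 rose and 66 fell, beside 0 and 7. With a pseudocount of 5, members called numbered 5 for Brg1 against Input in 22Rv1, 0 for Brg1 against IgG in 22Rv1 and 2 for Brg1 against Sfpq in 22Rv1. In that order 35 of 22542 rows rose and 24 fell, 2095 rose and 223 fell, and 652 rose and 527 fell. Without a trend in the prior, members called numbered 0 for Brg1 against Input in 22Rv1, 0 for Sfpq against Input in 22Rv1, 1 for Sfpq against IgG in 22Rv1 and 0 for Brg1 against Sfpq in 22Rv1. Those fits called 0 of all 22542 rows for Brg1 against Input, Sfpq against Input and Brg1 against Sfpq. For Sfpq against IgG they called 1781 higher and 247 lower. With edgeR on library totals, members called numbered 0 for Brg1 against Input in 22Rv1, 0 for Sfpq against Input in 22Rv1 and 0 for Brg1 against Sfpq in 22Rv1. In that order 1 of 22542 rows rose and 1 fell, 0 rose and 0 fell, and 8 rose and 40 fell. With DESeq2, members called numbered 6 for Brg1 against Input in 22Rv1, 7 for Sfpq against Input in 22Rv1, 3 for Brg1 against IgG in 22Rv1 and 2 for Brg1 against Sfpq in 22Rv1. Of rows given an adjusted p by DESeq2, 271 of 7200 rose and 231 fell for Brg1 against Input. For Sfpq against Input 254 of 7629 rose and 76 fell, and for Brg1 against IgG 2009 of 22162 rose and 1212 fell. For Brg1 against Sfpq 701 of 14454 rose and 1378 fell. With only the 2 groups compared in the fit, members called numbered 19 for Brg1 against Input in 22Rv1, 22 for Sfpq against Input in 22Rv1, 5 for IgG against Input in 22Rv1, 1 for Sfpq against IgG in 22Rv1 and 18 for Brg1 against Sfpq in 22Rv1. Over all rows, those fits called 6609 higher and 9535 lower of 22537 for Brg1 against Input. They called 5671 and 8147 of 22529 for Sfpq against Input and 28 and 1567 of 22504 for IgG against Input. For Sfpq against IgG they called 1251 and 17 of 22410, and for Brg1 against Sfpq 8859 and 8381 of 22538. On the deposited scaling, members called numbered 22 for IgG against Input in 22Rv1, 22 for Brg1 against IgG in 22Rv1, 22 for Sfpq against IgG in 22Rv1, 0 for Brg1 against Sfpq in 22Rv1 and 25 for Brg1 against Input in LNCaP. Nearly all rows were called in most of these. Of 22542 rows 22492 fell for IgG against Input, 22487 rose for Brg1 against IgG and 22438 rose for Sfpq against IgG. For Brg1 against Sfpq 65 rose and 28 fell, and in LNCaP 18255 of 22169 rows fell and 52 rose. With TMM factors, members called numbered 3 for Brg1 against IgG in 22Rv1, where 1796 of 22542 rows rose and 278 fell. On shares of plain-row reads, members called numbered 3 for Brg1 against IgG in 22Rv1, 5 for Brg1 against Sfpq in 22Rv1 and 8 for Brg1 against Input in LNCaP. Of all rows 2025 rose and 121 fell for Brg1 against IgG, 1069 and 87 for Brg1 against Sfpq, and 2646 and 133 in LNCaP. With a robust prior, added after seeing the data, members called numbered 2 for Brg1 against IgG in 22Rv1. Of all 22542 rows 1929 rose and 202 fell there. With edgeR and TMM factors, members called numbered 0 for Brg1 against Sfpq in 22Rv1, where 6 of 22542 rows rose and 84 fell. With all groups of the line in the fit, members called numbered 0 for Brg1 against Input in LNCaP. In that fit 11 of 22169 rows rose and 10 fell.

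The replicate letters were also tried as a pairing. With the replicate block, members called numbered 6 (from 3) for Brg1 against Input in 22Rv1, 3 (from 4) for Sfpq against Input in 22Rv1, 14 (from 10) for IgG against Input in 22Rv1, 5 (from 1) for Brg1 against IgG in 22Rv1, 6 (from 4) for Sfpq against IgG in 22Rv1, 4 (from 1) for Brg1 against Sfpq in 22Rv1 and 11 (from 13) for Brg1 against Input in LNCaP. Over all 22542 rows of 22Rv1 that block called 136 higher and 54 lower for Brg1 against Input. It called 0 and 3 for Sfpq against Input, 1077 and 5548 for IgG against Input, and 4864 and 602 for Brg1 against IgG. For Sfpq against IgG it called 5918 and 2050, for Brg1 against Sfpq 1499 and 1094, and in LNCaP 769 and 645 of 22169. The A minus B differences of the Brg1 and Input libraries had a correlation across rows of 0.0152 in 22Rv1 and -0.354 in LNCaP. With 1 such difference a group, this cannot show whether same-lettered libraries share a culture or batch, and the labels do not say. With the Input letters of LNCaP exchanged, an alternative added after seeing the data, 18 of 27 members were called. Of all 22169 rows 4736 rose and 5696 fell in that fit.

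On shares of plain-row reads, the shares of reads as percent of Input were 7.62% for 7SL, 23.5% for 7SK, 26.4% for RNase P/MRP, 34.1% for snRNA, 99.0% for snoRNA and 138% for scaRNA with Brg1 in 22Rv1. They were 14.9% for RNase P/MRP with IgG in 22Rv1. They were 3.75% for RNase P/MRP with Sfpq in 22Rv1. They were 36.6% for 7SK, 43.9% for RNase P/MRP, 110.2% for snoRNA and 152% for scaRNA with Brg1 in LNCaP. They were 48.9% for 7SL, 48.8% for 7SK, 92.4% for snoRNA and 126% for scaRNA with IgG in LNCaP. Without the most abundant row of each class, the shares of reads as percent of Input were 45.3% for RNase P/MRP, 34.4% for snRNA and 52.8% for scaRNA with Brg1 in 22Rv1. They were 43.3% for RNase P/MRP and 22.4% for snRNA with IgG in 22Rv1. They were 10.9% for RNase P/MRP, 14.2% for snRNA and 21.9% for scaRNA with Sfpq in 22Rv1. They were 81.3% for RNase P/MRP and 75.5% for scaRNA with Brg1 in LNCaP. With 1 library left out, class shares as percent of Input ranged over 13.9% to 31.8% for snRNA with Brg1 in 22Rv1. The ranges were 6.44% to 14.7% for snRNA with Sfpq in 22Rv1. The ranges were 20.2% to 46.8% for snRNA with Brg1 in LNCaP.

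Log2 changes that turned direction were as follows, and the cause was not tested. For Brg1 against Input in 22Rv1, on shares of plain-row reads they were 0.20 for SCARNA13, 0.68 for SCARNA2, 0.69 for SNORA73A and 0.31 for SNORD17. With TMM factors they were 0.064 for SCARNA2 and 0.11 for SNORA73A. With edgeR and TMM factors they were 0.063 for SCARNA2 and 0.12 for SNORA73A. For IgG against Input in 22Rv1, with edgeR and TMM factors they were 0.033 for SCARNA10, 0.36 for SCARNA2, 0.10 for SCARNA7 and 1.33 for SNORA73A. With DESeq2 they were 0.22 for SCARNA10, 0.34 for SCARNA2, 0.26 for SCARNA7 and 1.13 for SNORA73A. With TMM factors they were 0.10 for SCARNA2. On shares of plain-row reads they were 0.23 for SCARNA2. With edgeR on library totals they were 0.14 for SCARNA2 and 0.82 for SNORA73A. For Brg1 against Input in LNCaP, on shares of plain-row reads they were 0.16 for RMRP, 0.46 for SCARNA12, 0.16 for SCARNA7, 0.21 for SNORA57, 0.30 for SNORA73B and 0.13 for SNORD3A. With TMM factors they were 0.075 for SCARNA12. With edgeR and TMM factors they were 0.071 for SCARNA12. With DESeq2 they were 0.048 for SCARNA12. On the deposited scaling they were -1.05 for SCARNA2, -0.76 for SNORA48, -0.94 for SNORD17 and -1.33 for SNORD3C. With 1 library left out, the log2 change ran from -0.32 to 0.038 for SCARNA2 in Brg1 against Input in 22Rv1, -0.19 to 0.050 for SNORA73A in Brg1 against Input in 22Rv1, -0.93 to 0.49 for SCARNA2 in IgG against Input in 22Rv1, -0.091 to 0.070 for SCARNA12 in Brg1 against Input in LNCaP and -0.072 to 0.13 for SNORD3C in Brg1 against Input in LNCaP.

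Over all log2 changes of named members, leaving out 1 library kept the direction and the side of the threshold in 540 cases, lost a call in 61, gained one in 19 and turned the direction in 8, and the other alternatives did so in 1076, 54, 76 and 33 cases. Depth limits the LNCaP IgG libraries most, where 20 of 27 members had no IgG library above 3 reads.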
